A study of Mus musculus with 47 samples.

Results

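The genes described here are the cytochrome P450 genes of families 1, 2 and 3, the P450s best known for oxidising drugs, plant chemicals, steroids and fatty acids. Every symbol in the liver count table that starts with Cyp, then 1, 2 or 3, a letter and a number was taken, and 4 pseudogene symbols were left out. This gave 51 genes of the 20320 in the table. They belong to 15 subfamilies (genes that share the number and letter, such as Cyp2c), of which 8 have a single member. The largest are Cyp2c with 13 members, Cyp3a with 9 and Cyp2d with 8. An expression filter was passed by 48 members, as it was by 16650 of all genes. The members not tested were Cyp2d34, Cyp2j8 and Cyp2t4, and none of these exceeded 0.436 CPM (counts per 1 M counts of a library, M for mega) in any library.

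Cytochromes P450 are heme proteins of the endoplasmic reticulum that add an oxygen atom to their substrate, with electrons passed on by P450 oxidoreductase (Por). In liver they are made mainly by hepatocytes, and many are induced by foreign chemicals through the aryl hydrocarbon receptor (family 1), the constitutive androstane receptor Nr1i3 (Cyp2b) or the pregnane X receptor Nr1i2 (Cyp3a). In rodents, several differ between the sexes, following the pattern of growth hormone secretion, which acts on hepatocytes through Stat5 and regulators such as Cux2.

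Polyadenylated RNA of whole liver was sequenced from wild-type mice of 3 inbred strains. These were NZO/HlLtJ, a strain prone to obesity and diabetes, CAST/EiJ, a wild-derived strain, and C57BL/6J, the common laboratory strain. Males and females of each strain were given a 44% fat diet, described as high in fat and sugar and with added fiber, or a 10% fat diet with added fiber, started at 6 weeks of age, and liver was taken at 15 weeks of age. There were 47 libraries, 23 male and 24 female, in 12 groups. All groups held 4 apart from the CAST/EiJ males given 10% fat, of which there were 3. Whether every library came from its own animal is not stated in the labels, and the p-values therefore refer to the variation among libraries, which may be technical. In bulk liver, fewer cells of a type and less RNA per cell cannot be told apart.

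Library totals were 21.6 to 47.8 M counts, with a median of 40 M. All 6 hepatocyte markers were in the table, with a summed level between 44570 and 134500 CPM. This sum was lower in males than in females of CAST/EiJ, with 44570 to 71760 CPM in males and 78810 to 117100 CPM in females, and its part in the sex differences of that strain was not tested. In NZO/HlLtJ males it was 65400 to 80320 CPM on 44% fat and 86580 to 107000 CPM on 10% fat, without overlap, and in NZO/HlLtJ females 91760 to 105800 CPM and 93590 to 134500 CPM, with overlap. Of 8 markers of pancreatic acinar cells, 5 were in the table, and their sum was between 0 and 495 CPM, with a median of 0.222 CPM. Replicate numbers used here follow the order of the sample identifiers within a group and are not in the labels. The acinar gene Cpa1 was at least 20 CPM in 5 libraries, namely replicates 1 and 2 of C57BL/6J females on 44% fat, replicates 2 and 3 of C57BL/6J males on 10% fat and replicate 2 of CAST/EiJ females on 44% fat. Of these, C57BL/6J female replicate 1 on 44% fat and C57BL/6J male replicate 2 on 10% fat were set aside in an alternative fit, chosen after their values were seen. The female had 11.6 CPM of Cyp3a41a, against 515 to 1778 CPM in the other 3 of its group, and the male had 4610 CPM of Cyp3a11, against at most 1484 CPM. By Dixon's criterion the male was far from its group for 5 values and the female for none, while C57BL/6J male replicate 3 on 44% fat, far for 4 values, was kept. Fits without these 2 libraries are given beside several C57BL/6J results, and they called 29 members by sex in C57BL/6J, against 30 with them. In C57BL/6J the acinar sum was 0.0961 to 0.273 CPM in males and 0.149 to 487.6 CPM in females on 44% fat, and 0.0497 to 495 CPM in males and 0.222 to 2.20 CPM in females on 10% fat, and its part in the results was not tested.

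Several members are near copies of each other, which bears on every value for a single gene. For some sets of near copies, the sequences below show 1 stretch of coding bases that holds differences. Differences elsewhere are not shown, and neither is Cyp2c40, which had 98.1% identical coding bases with Cyp2c68. The stretches were read from the GENCODE annotation of mouse build GRCm38, 5′ to 3′ on the coding strand. Capitals mark the bases that differ between the genes shown together. Cyp2a4, a steroid hydroxylase (chr7:26307169-26315088, plus strand), and Cyp2a5, the coumarin hydroxylase (chr7:26835305-26843548, plus strand), had 98.5% identical coding bases, and coding bases 596 to 655 hold 4 of the differences.
Cyp2a4: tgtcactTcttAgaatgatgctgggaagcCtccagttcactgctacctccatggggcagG
Cyp2a5: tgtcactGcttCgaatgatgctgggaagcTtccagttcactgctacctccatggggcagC
Cyp3a41a (chr5:145694049-145720136, minus strand) and Cyp3a41b (chr5:145558664-145584730, minus strand) were identical at 1513 of 1515 coding bases, and coding bases 90 to 149 hold 1 of the differences.
Cyp3a41a: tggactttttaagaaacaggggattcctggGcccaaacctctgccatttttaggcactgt
Cyp3a41b: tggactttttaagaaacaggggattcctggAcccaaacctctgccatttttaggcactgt
Cyp2c67, Cyp2c68 and Cyp2c69, neighbours on chromosome 19, differ at 8 of the coding bases 1060 to 1119.
Cyp2c67: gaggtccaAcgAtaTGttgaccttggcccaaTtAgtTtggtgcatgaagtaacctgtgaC
Cyp2c68: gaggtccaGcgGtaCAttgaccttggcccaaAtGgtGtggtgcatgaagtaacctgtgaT
Cyp2c69: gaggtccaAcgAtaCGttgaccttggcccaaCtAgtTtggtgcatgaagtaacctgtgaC

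Reads were 100 bases long at each end. Of all 100-base stretches of the Cyp3a41a transcript, 88.4% were also in the Cyp3a41b transcript, so these genes can hardly be counted apart. For Cyp2c40, 44.1% of the stretches were found in another gene of the annotation, with 26.8% in Cyp2c69, and for Cyp2c69 the share was 36.3%. The shares were 23.7% for Cyp2c67, 19.8% for Cyp2c68, 14.8% for Cyp2d10, 14.4% for Cyp2a5 and 11.2% for Cyp2a4. For Cyp2b9, Cyp2d22, Cyp3a11 and Cyp3a16 it was at most 1.18%. How shared reads were counted is not given in the sources used here, so values of single genes in these clusters are uncertain, and subfamily sums are given beside them. A sum does not depend on how reads are split among the members it holds, but copies outside the sums share stretches too, with 7.21% of Cyp2a5 and 2.81% of Cyp2a4 in Cyp2a21-ps, 8.5% of Cyp2b13 in Gm45225 and 2.58% of Cyp3a44 in Cyp3a63-ps.

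The members were on 8 chromosomes, mostly in clusters of their own subfamily, with 13 Cyp2c genes on chromosome 19, 9 Cyp3a genes on chromosome 5 and 8 Cyp2d genes on chromosome 15. Chromosome 7 held 13 members, among them all Cyp2a and Cyp2b genes. In 46 promoters of members in RefSeq (GRCm38.p6; 250 bases before to 50 bases after the start, both strands), the Stat5 motif TTCNNNGAA was found in 0, against 8.3% of all 32851 promoters, and the aryl hydrocarbon receptor motif TNGCGTG in 1 (2.17%), against 5.07% of all. The nuclear receptor half-site AGTTCA was in 7 member promoters (15.2%), against 14% of all promoters. The first and the last of these motifs can overlap, and the shares describe letters in a short window only.

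The share of all liver mRNA counts taken by the 51 members had a higher median in females than in males of each strain, which is given as a description. In NZO/HlLtJ they took 1.14% to 1.38% of all counts in males (median 1.25%) and 1.75% to 2.33% in females (median 2.06%). In CAST/EiJ the share was 1.80% to 2.18% in males (median 1.93%) and 2.54% to 3.22% in females (median 2.69%). In both strains the sexes did not overlap. In C57BL/6J it was 1.48% to 1.77% in males (median 1.57%) and 1.48% to 2.38% in females (median 2.11%), where the lowest female library was replicate 1 on 44% fat.

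Which P450 led the family depended on strain and sex when levels were set per kilobase of transcript. Cyp2e1, which oxidises ethanol and acetaminophen, was first in 5 of the 6 combinations of strain and sex. It averaged 2843 ± 393 CPM per kilobase in C57BL/6J males (SD, n = 8), which was 33.9% of the members' total per kilobase. NZO/HlLtJ females were the exception, with Cyp3a41a at 2280 ± 188 CPM per kilobase (21.4% of the total) and Cyp2e1 at 1714 ± 422 CPM per kilobase (16.1%). Second place was held by Cyp2f2, the naphthalene-oxidising P450, in NZO/HlLtJ males (615 ± 86.6 CPM per kilobase), and by Cyp2d9, a testosterone hydroxylase, in CAST/EiJ males (1239 ± 90.9). In CAST/EiJ females it was held by Cyp2a4 (1754 ± 259), and in C57BL/6J males and females by Cyp3a11, a main target of the pregnane X receptor (716 ± 511 and 1047 ± 286 CPM per kilobase). Neighbours in this order are not separated where their SDs overlap, and the values of near copies depend on how shared reads were counted.

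Within each strain, more members were called by sex than by diet. Males were set against females in each strain, averaged over the diets, with edgeR's quasi-likelihood test on 12 group means and Benjamini-Hochberg adjustment over all 16650 genes, and a gene was called at an adjusted p under 0.05. In NZO/HlLtJ, 25 of 48 members were called, 9 higher and 16 lower in males, which is 52.1%, while 17.2% of all genes were called (7.94% higher and 9.31% lower). In CAST/EiJ, 33 members were called, 12 higher and 21 lower in males, which is 68.8%, against 30.3% of all genes (16.1% higher and 14.2% lower). In C57BL/6J, 30 members were called, 8 higher and 22 lower in males, which is 62.5%, against 16.8% of all genes (8.1% higher and 8.7% lower). The median log2 difference of the 48 members, male minus female, was -0.23 in NZO/HlLtJ, -0.37 in CAST/EiJ and -0.28 in C57BL/6J, and that of all genes was -0.02, -0.01 and -0.01 in the same order. These medians are over members that passed the filter and are given as a description.

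Across strains, 39 members were called in at least 1 strain. Of these, 23 were called lower in males and never higher, and 13 higher in males and never lower. Cyp2c44, Cyp2c70 and Cyp3a25 were called in opposite directions in different strains. Lower in males in every strain were 12 members, namely Cyp2a4, Cyp2a22, Cyp2b9, Cyp2c37, Cyp2c39, Cyp2c69, Cyp2d26, Cyp2g1, Cyp3a16, Cyp3a41a, Cyp3a41b and Cyp3a44. Higher in males in every strain were 5 members, namely Cyp2d9, Cyp2d10, Cyp2f2, Cyp2j6 and Cyp2u1. The 9 members called in no strain were Cyp1a1, Cyp1b1, Cyp2c50, Cyp2c54, Cyp2c55, Cyp2d40, Cyp2e1, Cyp2j9 and Cyp2s1. Shares of all genes with these patterns were not counted, so the counts across strains are given as a description.

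**Figure D1:**
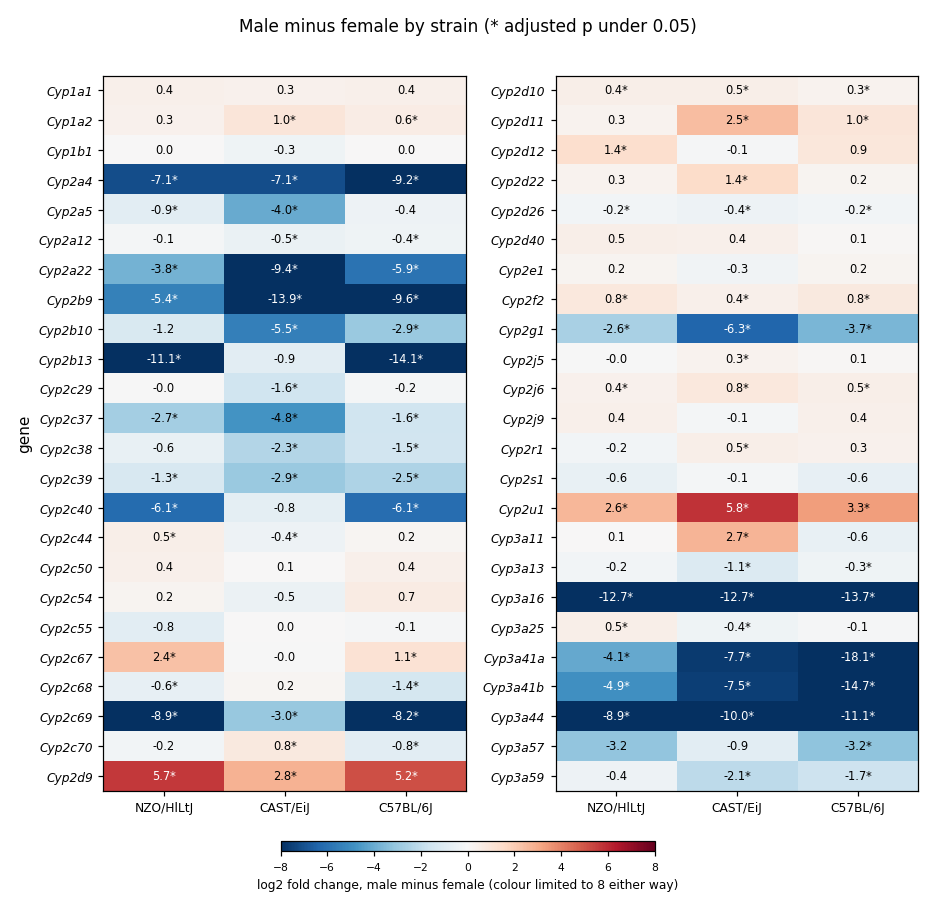
Log2 fold change, male minus female, of each of the 48 tested members (rows) in NZO/HlLtJ, CAST/EiJ and C57BL/6J (columns); red and blue give the sign, the printed number is the fitted value and an asterisk marks an adjusted p under 0.05. Values of genes with almost no counts in one sex, such as Cyp2b13 and Cyp3a41a in C57BL/6J males, depend on the fit and are no bound; 12 members carry a called negative value in all 3 columns and 5 a called positive one.

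Subfamily sums differed by sex for 8 subfamilies in every strain. The sum of Cyp2b, the phenobarbital-inducible subfamily, had the largest difference of the 14 sums in each strain. Its lowest, median and highest levels in NZO/HlLtJ were 1.69, 9.92 and 62.8 CPM in males and 564, 825 and 994 CPM in females. In CAST/EiJ they were 0.122, 0.171 and 0.246 CPM in males and 27.3, 115 and 172 CPM in females. In C57BL/6J they were 0.0750, 1.75 and 6.26 CPM in males and 411, 670 and 936 CPM in females. In each strain every male library was below every female library, and the log2 differences were -5.68 (SE 0.51, adjusted p = 1.10e-10), -9.32 (SE 0.75, adjusted p = 2.44e-12) and -8.38 (SE 0.58, adjusted p = 1.12e-13) in the order NZO/HlLtJ, CAST/EiJ and C57BL/6J. Without the 2 C57BL/6J libraries set aside the last was -9.78.

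The Cyp2a, Cyp2c, Cyp2g and Cyp3a sums were also lower in males in every strain. For Cyp2a the log2 difference was -1.47 in NZO/HlLtJ (adjusted p = 5.29e-14), -3.19 in CAST/EiJ (adjusted p = 2.23e-23) and -1.48 in C57BL/6J (adjusted p = 3.30e-14). The CAST/EiJ difference came with Cyp2a sums of 488, 561 and 715 CPM in males (lowest, median, highest) and 3585, 5445 and 6265 CPM in females. The Cyp3a sum had median levels of 1426 CPM in NZO/HlLtJ males and 7249 CPM in females, with no overlap, and its log2 difference was -2.31 (SE 0.20, adjusted p = 2.01e-11). In CAST/EiJ and C57BL/6J it was -1.05 each (adjusted p = 1.05e-04 and 1.11e-04). In C57BL/6J the sums overlapped, with 1272, 1728 and 5378 CPM in males and 3695, 4156 and 5141 CPM in females, where male replicate 2 on 10% fat was the highest, and without the 2 libraries set aside the difference was -1.35. The Cyp2g sum, which is Cyp2g1, differed by -2.57, -6.32 and -3.67 (adjusted p of at most 1.07e-06). The Cyp2c sum differed less, by -0.60, -0.61 and -0.91 (adjusted p = 1.05e-04, 7.73e-05 and 5.14e-08, in the order NZO/HlLtJ, CAST/EiJ and C57BL/6J). The 3 other subfamilies that differed in every strain were higher in males. Cyp2d rose by 0.68, 0.96 and 0.77, Cyp2f by 0.84, 0.41 and 0.79 and Cyp2u by 2.65, 5.76 and 3.33 on the log2 scale in the same order, all at an adjusted p of at most 1.90e-04. The remaining 6 sums were called in some strains or in none. Cyp1a was higher in males of CAST/EiJ (0.96, adjusted p = 2.14e-04) and C57BL/6J (0.61, adjusted p = 0.0210, but 0.0690 without the 5 libraries high in Cpa1) and not called in NZO/HlLtJ (0.33, adjusted p = 0.246). Cyp2j was higher in CAST/EiJ males (0.31, adjusted p = 0.00535) and not called in NZO/HlLtJ (0.03) or C57BL/6J (0.16). Cyp2r passed in CAST/EiJ (0.45, adjusted p = 0.0331), not without the same 5 libraries (adjusted p = 0.0696), and differed by -0.23 in NZO/HlLtJ and 0.35 in C57BL/6J, neither called. Cyp1b (0.05, -0.35 and 0.01), Cyp2e (0.25, -0.28 and 0.20) and Cyp2s (-0.59, -0.14 and -0.63), in the same order of strains, were called in no strain.

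**Figure D2:**
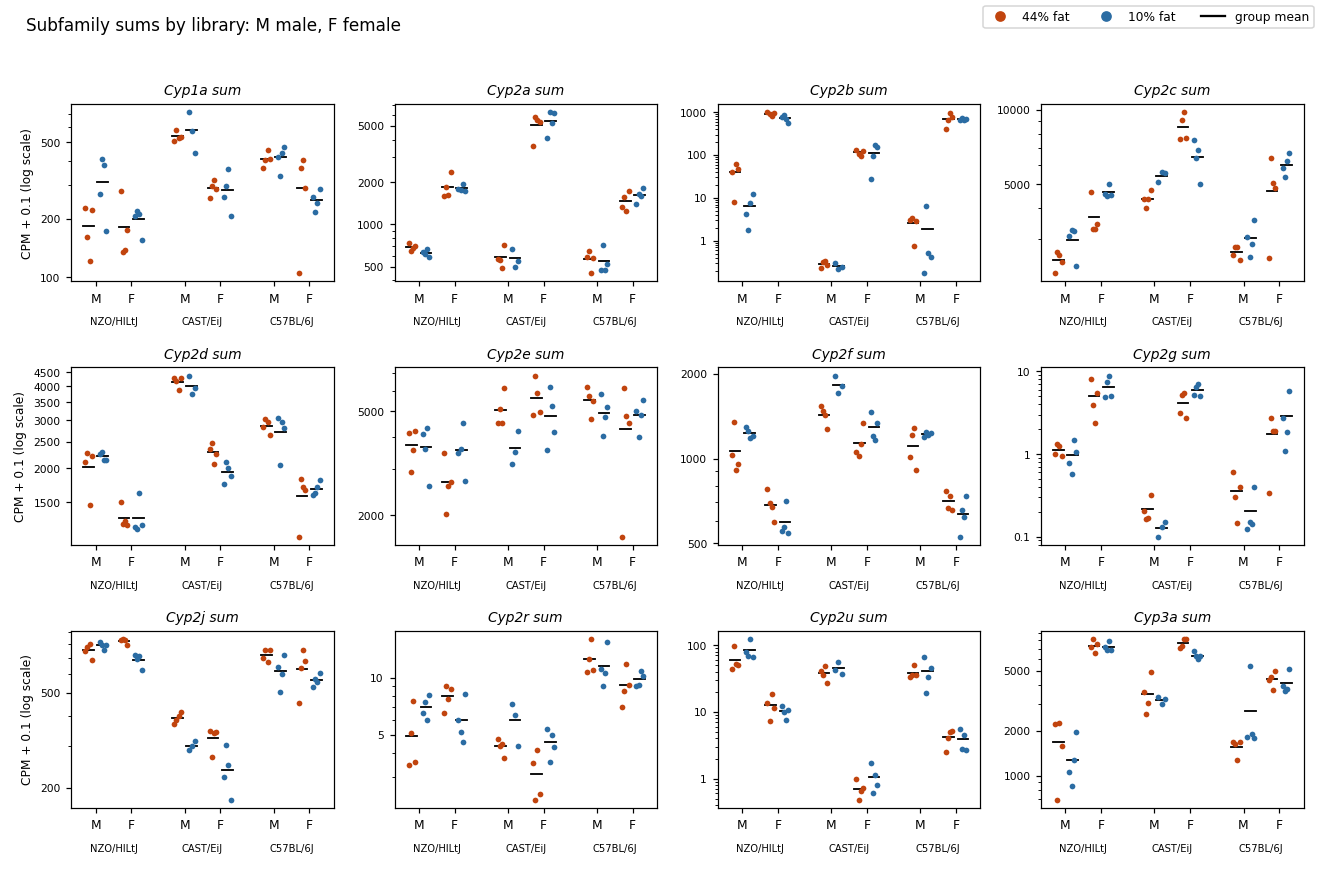
Summed CPM of the members of 12 of the 14 tested subfamilies, without Cyp1b and Cyp2s (one panel each; log axis, CPM + 0.1) in every library, with males (M) left of females (F) in each strain and 44% fat (red) left of 10% fat (blue); black bars are group means. The Cyp2b panel shows every male library below every female library of its strain, and the Cyp2u panel the reverse.

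Of the 3 Cyp2b members, 2, 2 and 3 were called lower in males in NZO/HlLtJ, CAST/EiJ and C57BL/6J. Cyp2b9 had 1.66, 9.54 and 59.7 CPM in NZO/HlLtJ males (lowest, median, highest) and 494, 658 and 773 CPM in females, a log2 difference of -5.41 (SE 0.53, adjusted p = 1.33e-09). In C57BL/6J it had 0, 0.199 and 3.59 CPM in males and 358, 564 and 659 CPM in females, a log2 difference of -9.60 (SE 0.66, adjusted p = 1.78e-13). In both strains the sexes were far apart. The highest C57BL/6J male was replicate 2 on 10% fat, and without the 2 libraries set aside the C57BL/6J difference was -11.59. In CAST/EiJ males Cyp2b9 had 2 counts over 7 libraries, while CAST/EiJ females had 25.2, 106 and 164 CPM. Cyp2b13, a female-specific P450 of mouse liver, went further, with 0 to 0.557 CPM in NZO/HlLtJ males and 72.6, 174 and 284 CPM in females (log2 difference -11.10, SE 0.52, adjusted p = 1.80e-14). C57BL/6J males had 2 counts of Cyp2b13 over 8 libraries, and C57BL/6J females 25.1, 107 and 258 CPM. CAST/EiJ was the exception, with 1 count of Cyp2b13 in 15 libraries of either sex. Cyp2b10, the classic target of Nr1i3, was a low gene in these livers, with a highest level of 27.8 CPM in C57BL/6J female replicate 1 on 44% fat. It was lower in males in CAST/EiJ, with 0.123, 0.149 and 0.225 CPM in males and 2.29, 6.68 and 16.4 CPM in females (log2 difference -5.49, adjusted p = 1.54e-07), and in C57BL/6J (-2.94, adjusted p = 7.88e-05, and -3.48 without the 2 libraries set aside), but was not called in NZO/HlLtJ (-1.21, adjusted p = 0.159).

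Of the 4 Cyp2a members, 3, 4 and 3 were called lower in males in the same order of strains, and Cyp2a4 separated the sexes in every strain. It had 0.474, 1.15 and 41.7 CPM in NZO/HlLtJ males and 657, 941 and 1346 CPM in females, a log2 difference of -7.08 (SE 0.90, adjusted p = 2.46e-07). In CAST/EiJ it had 7.86, 20.1 and 51.1 CPM in males and 2126, 3178 and 3476 CPM in females, a log2 difference of -7.12 (SE 0.99, adjusted p = 5.99e-07). In C57BL/6J it had 0.0497, 0.201 and 30.3 CPM in males and 296, 804 and 886 CPM in females, a log2 difference of -9.20 (SE 1.02, adjusted p = 1.23e-08). No male library overlapped the females, and without the 2 libraries set aside the C57BL/6J difference was -11.91. Cyp2a5, its near copy, did so only in CAST/EiJ, where males had 49.7, 78.7 and 184 CPM and females 836, 1592 and 2176 CPM (log2 difference -4.04, SE 0.34, adjusted p = 8.82e-12). It was called by a smaller margin in NZO/HlLtJ (-0.87, adjusted p = 0.0296), with overlapping sexes, and not in C57BL/6J (-0.43, adjusted p = 0.336). The NZO/HlLtJ call was lost in 5 of 16 refits that left out a library (adjusted p up to 0.0702). The dependence of the Cyp2a5 sex difference on strain had an adjusted p of 8.83e-08 in the test of sex by strain. Cyp2a22 was lower in males by 3.79 in NZO/HlLtJ and 5.91 in C57BL/6J on the log2 scale (adjusted p = 2.64e-07 and 1.50e-10). In CAST/EiJ males it had 4 counts over 7 libraries, and CAST/EiJ females had 2.67, 7.76 and 34.4 CPM. Cyp2a12, a bile acid and steroid hydroxylase, differed by much less, with -0.53 in CAST/EiJ (adjusted p = 8.86e-08), -0.37 in C57BL/6J (adjusted p = 7.54e-05) and -0.13 in NZO/HlLtJ (adjusted p = 0.193).

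Of the 13 Cyp2c members, 7, 7 and 8 were called by sex in NZO/HlLtJ, CAST/EiJ and C57BL/6J, of which 5, 6 and 7 were lower in males. Cyp2c40, which hydroxylates arachidonic acid, had 1.13, 7.81 and 20.2 CPM in NZO/HlLtJ males and 399, 646 and 881 CPM in females (log2 difference -6.14, SE 0.46, adjusted p = 8.63e-13). C57BL/6J gave nearly the same, with 2.80, 9.40 and 28.3 CPM in males and 247, 723 and 880 CPM in females (-6.07, SE 0.46, adjusted p = 7.21e-13). CAST/EiJ males, in contrast, had 93.2, 387 and 657 CPM and overlapped CAST/EiJ females at 404, 697 and 830 CPM (-0.78, SE 0.38, adjusted p = 0.127). The test of sex by strain for Cyp2c40 had an adjusted p of 2.13e-09. Within CAST/EiJ males, the libraries on 44% fat had 387, 173, 265 and 93.2 CPM of Cyp2c40, and those on 10% fat had 657, 633 and 657 CPM. These diet groups did not overlap, yet the difference was not called (log2 difference -1.50, adjusted p = 0.451). Cyp2c69, its near copy, was lower in males by 8.88, 3.02 and 8.21 on the log2 scale in the order NZO/HlLtJ, CAST/EiJ and C57BL/6J (adjusted p = 6.32e-14, 6.37e-06 and 1.20e-13), again least in CAST/EiJ.

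Cyp2c67 ran the other way in 2 of the 3 strains. It had 505, 745 and 940 CPM in NZO/HlLtJ males and 116, 122 and 234 CPM in females (log2 difference 2.37, SE 0.20, adjusted p = 1.95e-11), and was also higher in C57BL/6J males (1.14, adjusted p = 4.51e-05). In CAST/EiJ it had 79.3, 146 and 350 CPM in males and 62.8, 154 and 269 CPM in females, with full overlap (-0.03, adjusted p = 0.942). Cyp2c37 was lower in males everywhere, with differences of -2.72, -4.79 and -1.59 in the same order of strains (adjusted p = 5.12e-09, 1.18e-13 and 5.64e-05). Cyp2c29 was called in CAST/EiJ alone among the 3 strains, with 196, 234 and 579 CPM in males and 690, 771 and 1064 CPM in females (-1.59, SE 0.19, adjusted p = 1.72e-08). For Cyp2c29 the test of sex by strain had an adjusted p of 2.07e-05. Cyp2c70, which in mice makes muricholic acids from chenodeoxycholic acid, was higher in CAST/EiJ males (0.75, adjusted p = 0.00143), lower in C57BL/6J males (-0.83, adjusted p = 7.42e-04) and not called in NZO/HlLtJ (-0.24, adjusted p = 0.388). Cyp2c44, an arachidonic acid epoxygenase, was higher in NZO/HlLtJ males (0.48, adjusted p = 6.99e-04), lower in CAST/EiJ males (-0.38, adjusted p = 0.00554) and not called in C57BL/6J (0.16, adjusted p = 0.295).

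Of the 9 Cyp3a members, 5, 8 and 7 were called by sex in NZO/HlLtJ, CAST/EiJ and C57BL/6J, of which 4, 7 and 7 were lower in males. Cyp3a41a had 3.87, 80.4 and 1059 CPM in NZO/HlLtJ males and 4220, 4682 and 5310 CPM in females, a log2 difference of -4.07 (SE 0.87, adjusted p = 0.00118). In CAST/EiJ it had 0.425, 3.08 and 61.5 CPM in males and 1045, 1334 and 1935 CPM in females, a log2 difference of -7.69 (SE 1.16, adjusted p = 6.02e-06). In all 8 C57BL/6J male libraries Cyp3a41a was at 0, while C57BL/6J females had 11.6, 852 and 1778 CPM, so that it was at least 12800-fold lower in males (against 3 counts per library). The sexes did not overlap in any strain, but NZO/HlLtJ males varied widely, with 3.87, 33.9, 1059 and 54.4 CPM on 44% fat and 234, 10.9, 106 and 733 CPM on 10% fat. Cyp3a41b, which can hardly be counted apart from Cyp3a41a, had 2 counts over the 8 C57BL/6J male libraries and was lower in males in NZO/HlLtJ (-4.91, adjusted p = 7.93e-05) and CAST/EiJ (-7.51, adjusted p = 1.63e-06).

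Cyp3a44, another female-predominant Cyp3a, was lower in males by 8.91, 9.98 and 11.1 on the log2 scale in NZO/HlLtJ, CAST/EiJ and C57BL/6J (adjusted p of at most 9.16e-13). Without the 2 libraries set aside the C57BL/6J difference was -11.73. Cyp3a16, known as a fetal and neonatal form in mouse liver, was at no more than 0.127 CPM in any male library of any strain. Its female levels were 110, 344 and 497 CPM in NZO/HlLtJ, 20.03, 61.7 and 137 CPM in CAST/EiJ and 0.0962, 63.1 and 187 CPM in C57BL/6J. Cyp3a11 was called by sex in CAST/EiJ alone among the 3 strains. CAST/EiJ males had 656, 1123 and 2086 CPM and CAST/EiJ females 26.4, 178 and 424 CPM (log2 difference 2.71, SE 0.38, adjusted p = 7.35e-07), with no overlap. NZO/HlLtJ showed no called difference (0.05, SE 0.35, adjusted p = 0.948), nor did C57BL/6J, with 907, 1307 and 4610 CPM in males and 1641, 2392 and 3830 CPM in females (-0.62, SE 0.35, adjusted p = 0.248, and -0.83, adjusted p = 0.119, without the 2 libraries set aside). The test of sex by strain for Cyp3a11 had an adjusted p of 2.39e-05. The C57BL/6J male at 4610 CPM was replicate 2 on 10% fat, which also had the highest male Cyp2a4 and Cyp2b9 of its strain. Cyp3a13 was lower in males in CAST/EiJ (-1.11, adjusted p = 6.07e-12) and by less in C57BL/6J (-0.32, adjusted p = 0.0125), where the call was lost without female replicate 3 on 44% fat (adjusted p = 0.0511).

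**Figure D3:**
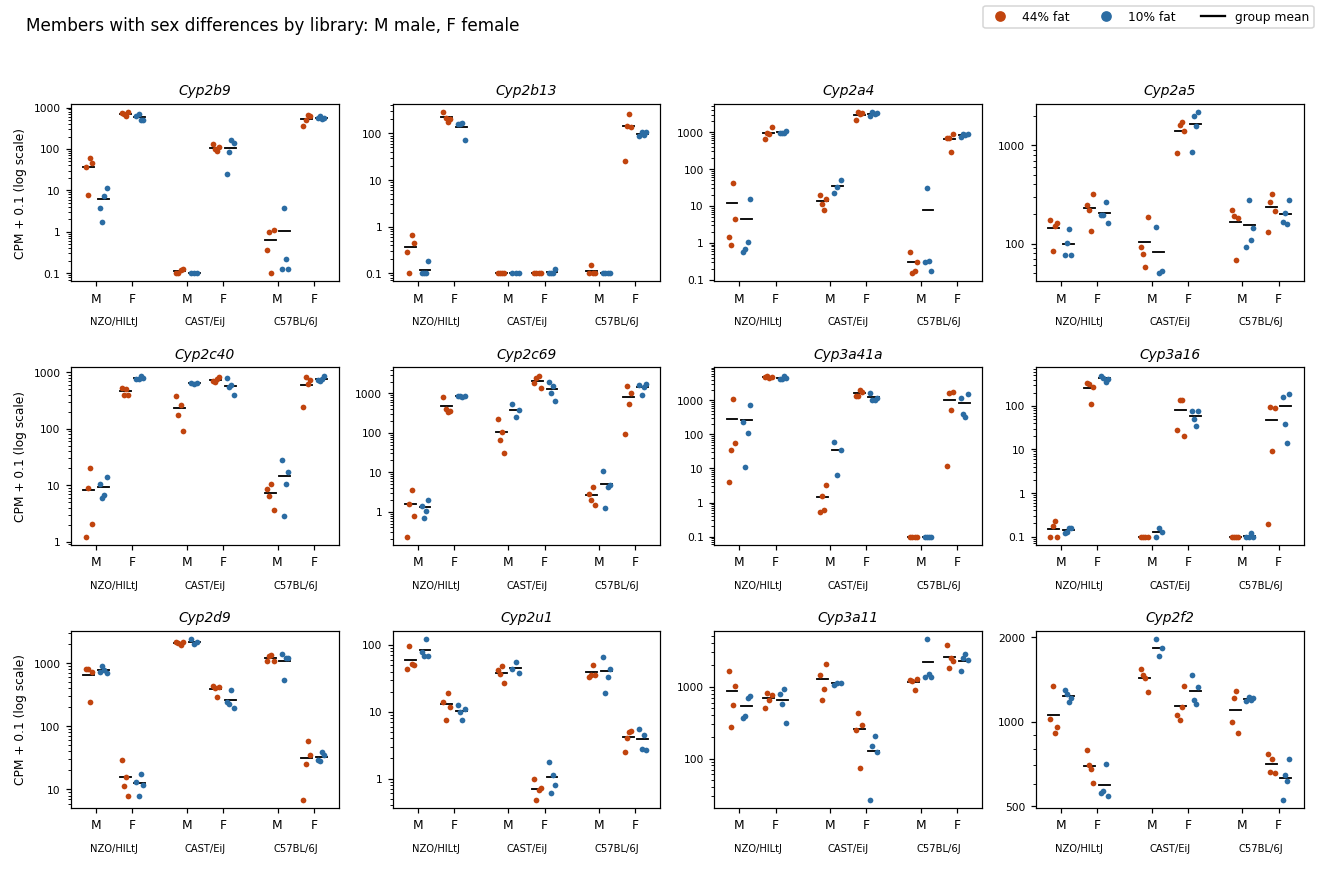
CPM + 0.1 (log axis) of 12 members in every library, males (M) left of females (F) in each strain, with 44% fat in red left of 10% fat in blue and black bars at group means. Cyp2c40 and Cyp2c69 in CAST/EiJ males lie far above those of the other males, Cyp2b13 is near 0 in both sexes of CAST/EiJ, and Cyp3a11 separates the sexes in CAST/EiJ.

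Of the 7 tested Cyp2d members, 4, 5 and 4 were called by sex in the same order of strains, all but Cyp2d26 higher in males. Cyp2d9, a testosterone 16-alpha hydroxylase and a standard marker of male mouse liver, had 244, 754 and 891 CPM in NZO/HlLtJ males and 7.67, 12.2 and 29.0 CPM in females (log2 difference 5.66, SE 0.33, adjusted p = 8.71e-16). CAST/EiJ had 1931, 2156 and 2409 CPM in males and 191, 331 and 437 CPM in females (2.76, SE 0.29, adjusted p = 1.96e-09). C57BL/6J had 529, 1209 and 1404 CPM in males and 6.74, 32.0 and 58.4 CPM in females (5.16, SE 0.32, adjusted p = 3.99e-15). The sexes never overlapped, and the test of sex by strain had an adjusted p of 3.14e-06 with the smallest difference in CAST/EiJ, whose females had more than those of the other strains. Cyp2u1, which hydroxylates long-chain fatty acids, had its largest difference in CAST/EiJ (sex by strain, adjusted p = 2.23e-07). It had 26.9, 41.5 and 56.2 CPM in CAST/EiJ males and 0.379, 0.662 and 1.64 CPM in females (5.77, SE 0.30, adjusted p = 1.16e-17), against differences of 2.64 in NZO/HlLtJ and 3.33 in C57BL/6J (adjusted p = 5.76e-11 and 3.93e-13). Cyp2f2 was higher in males by 0.83, 0.42 and 0.79 in the order NZO/HlLtJ, CAST/EiJ and C57BL/6J, and Cyp2j6, of the subfamily that holds fatty acid epoxygenases, by 0.36, 0.81 and 0.45 (adjusted p of at most 1.71e-04 for Cyp2f2 and 0.00104 for Cyp2j6).

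The remaining members differed little or in part. Cyp2d10 was higher in males by 0.45, 0.48 and 0.31 on the log2 scale in the order NZO/HlLtJ, CAST/EiJ and C57BL/6J, while Cyp2d26 was lower by 0.21, 0.40 and 0.23. Cyp2d22 was higher in CAST/EiJ males (1.45, adjusted p = 7.88e-14) and not called in NZO/HlLtJ (0.25, adjusted p = 0.0967) or C57BL/6J (0.20, adjusted p = 0.195). Cyp1a2, which clears caffeine and is a main target of the aryl hydrocarbon receptor, was higher in CAST/EiJ males (0.97, adjusted p = 1.81e-04) and C57BL/6J males (0.61, adjusted p = 0.0203). The C57BL/6J call was lost without the 5 libraries high in Cpa1 (0.53, adjusted p = 0.0690). In NZO/HlLtJ it had 121, 224 and 409 CPM in males and 135, 191 and 282 CPM in females, with overlapping ranges (0.32, adjusted p = 0.261). Cyp2r1, the vitamin D 25-hydroxylase, passed in CAST/EiJ (0.46, adjusted p = 0.0304), but not without the same 5 libraries (0.39, adjusted p = 0.0686) and not in 6 of 15 refits that left out a library (up to 0.104). Cyp2e1 showed no called sex difference, with log2 differences of 0.24, -0.27 and 0.20 and standard errors of 0.16 to 0.17.

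The sex difference of 29 of 48 members depended on strain in the joint test, while 13.6% of all genes were called in it. Those with the lowest adjusted p were Cyp2c40, Cyp2c68, Cyp2d22, Cyp2c69 and Cyp2a5 (2.13e-09, 6.13e-09, 2.56e-08, 2.62e-08 and 8.83e-08). Cyp2c40, Cyp2c68 and Cyp2c69 share stretches with each other, and the Cyp2c sum was not called in this test. The part that the split of shared reads in each strain had in these 3 results was not tested. Within the 3 runs of consecutive sample identifiers, used in place of a batch that the labels do not give, the sex counts in CAST/EiJ were 15, 29 and 17 members and in C57BL/6J 16, 18 and 20 members, with fewer libraries in each fit. For NZO/HlLtJ a fit was made within the first run, and it gave 20 members. With the run as a term for all libraries, the counts were 25 in NZO/HlLtJ, 33 in CAST/EiJ and 31 in C57BL/6J. The count for sex by strain was 4 members within the first run and 28 with the run as a term.

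Differences between strains, averaged over sex and diet, were many for members and for all genes. Between NZO/HlLtJ and C57BL/6J, 35 of 48 members were called, 16 higher and 19 lower in NZO/HlLtJ, which is 72.9%, against 49.1% of all genes (25.5% higher and 23.6% lower). Between CAST/EiJ and C57BL/6J, 39 members were called, 24 higher and 15 lower in CAST/EiJ, which is 81.2%, against 67.9% of all genes (32.6% higher and 35.3% lower). Between NZO/HlLtJ and CAST/EiJ, 39 were called, 14 higher and 25 lower in NZO/HlLtJ, which is also 81.2%, against 68.1% of all genes (35.3% higher and 32.8% lower). These comparisons share libraries. Within the first run of consecutive sample identifiers, 19, 27 and 28 members were called in the same order of comparisons, and with the run as a term 35, 39 and 39. Whether reads were aligned to each strain's own genome is not given in the sources used here, so a difference in level and a difference in how well a strain's reads match the C57BL/6J-derived reference cannot be told apart.

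NZO/HlLtJ stood out in several Cyp2c genes. Cyp2c44 had 16.2, 27.9 and 49.0 CPM in NZO/HlLtJ (lowest, median and highest of 16 libraries), against 389, 528 and 713 CPM in CAST/EiJ and 189, 306 and 367 CPM in C57BL/6J. The ranges of NZO/HlLtJ and the other strains did not meet, and the log2 differences were -3.39 from C57BL/6J and -4.26 from CAST/EiJ (SE 0.08 each, adjusted p = 4.14e-32 and 1.27e-35). Cyp2c39 was the reverse, with NZO/HlLtJ above CAST/EiJ by 3.79 and above C57BL/6J by 7.41 (adjusted p = 1.20e-19 and 1.84e-26), and CAST/EiJ above C57BL/6J by 3.62 (adjusted p = 4.58e-19). Cyp2c39 had 217 CPM or more in every NZO/HlLtJ library and 12.3 CPM or less in every C57BL/6J library. Cyp2c55 was lower in NZO/HlLtJ than in C57BL/6J by 3.23 and than in CAST/EiJ by 3.09 (adjusted p = 1.63e-12 and 2.52e-12), at levels of 0.102 to 0.986 CPM in NZO/HlLtJ.

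CAST/EiJ stood out in others. Cyp2c38 had at most 9.34 CPM in CAST/EiJ and at least 21.7 CPM in C57BL/6J (log2 difference -5.00, SE 0.24, adjusted p = 3.60e-20). Cyp3a25 was at 1791 CPM or more in every CAST/EiJ library and at 531 CPM or less in every other library, with log2 differences of 2.88 for CAST/EiJ against C57BL/6J and -3.14 for NZO/HlLtJ against CAST/EiJ (SE 0.08 and 0.09, adjusted p = 4.11e-29 and 3.63e-30). Cyp2d11, with 94.7% of its coding bases as in Cyp2d10, had 1.98 to 20.4 CPM in CAST/EiJ and at most 0.497 CPM in the other strains (4.96 against C57BL/6J, adjusted p = 1.07e-26). Cyp2j5, an arachidonic acid epoxygenase, and Cyp2j6 were lower in CAST/EiJ than in C57BL/6J, by 1.01 and 1.16 (SE 0.06 each, adjusted p = 1.68e-17 and 9.68e-21). Cyp3a11 was lower than in C57BL/6J in both other strains, by 1.54 in NZO/HlLtJ and 2.09 in CAST/EiJ (adjusted p = 3.85e-06 and 1.30e-08). The CAST/EiJ gap was mostly in females, with means of 193.5 CPM in CAST/EiJ and 2455 CPM in C57BL/6J. Male means of Cyp3a11 were 1204 and 1677 CPM, with overlapping ranges.

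By subfamily, the Cyp2b sum was highest in NZO/HlLtJ and lowest in CAST/EiJ, with log2 differences of 1.59 for NZO/HlLtJ against C57BL/6J, -3.06 for CAST/EiJ against C57BL/6J and 4.65 for NZO/HlLtJ against CAST/EiJ (adjusted p = 6.98e-05, 7.98e-08 and 3.39e-12). Between NZO/HlLtJ and C57BL/6J the gap was mostly in males, with means of 22.85 and 2.105 CPM. Female means were 816.1 and 685 CPM, with overlapping ranges. All these strain values average the sexes. For the Cyp2a, Cyp2b, Cyp2f, Cyp2g, Cyp2u and Cyp3a sums the sex difference depended on strain, and strains were not tested within a sex. The Cyp2a, Cyp2c, Cyp2d, Cyp2f and Cyp3a sums were higher in CAST/EiJ than in C57BL/6J, by 0.92, 0.63, 0.46, 0.66 and 0.71, at adjusted p of at most 2.48e-05. For Cyp2a the gap was in females, with means of 5262 CPM in CAST/EiJ and 1543 CPM in C57BL/6J. Male means of Cyp2a were 579 and 554.3 CPM. The Cyp2j, Cyp2r and Cyp2u sums were lower in CAST/EiJ, by 1.03, 1.31 and 1.15. For Cyp2u the gap was in females, with means of 0.789 CPM in CAST/EiJ and 3.935 CPM in C57BL/6J. Male means of Cyp2u were 41.25 and 39.69 CPM. NZO/HlLtJ was above C57BL/6J for the Cyp2a, Cyp2g, Cyp2j and Cyp2u sums, by 0.25, 1.95, 0.28 and 1.19, and below it for Cyp1a, Cyp2d and Cyp2r, by 0.65, 0.35 and 0.75 (adjusted p of at most 0.00536). It was also below C57BL/6J for Cyp2c by 0.21 (adjusted p = 0.0228) and for Cyp2s by 0.44 (adjusted p = 0.0396), calls that were lost in refits without single libraries (adjusted p up to 0.0615 and 0.0845), and for Cyp2s also without the 5 libraries high in Cpa1 (-0.22, adjusted p = 0.406). The Cyp2f and Cyp3a sums of NZO/HlLtJ and C57BL/6J were not called apart (-0.05 and 0.14). For Cyp3a this average joins opposite directions in the sexes. Male means were 1483 CPM in NZO/HlLtJ and 2138 CPM in C57BL/6J, and female means were 7306 and 4276 CPM. NZO/HlLtJ was below CAST/EiJ for the Cyp1a, Cyp2a, Cyp2c, Cyp2d, Cyp2f, Cyp2s and Cyp3a sums, by 0.90, 0.67, 0.84, 0.81, 0.71, 0.96 and 0.56, and above it for Cyp2g, Cyp2j, Cyp2r and Cyp2u, by 2.09, 1.30, 0.56 and 2.33 (adjusted p of at most 4.81e-04). Cyp2a means in NZO/HlLtJ and CAST/EiJ were 658.9 and 579 CPM in males and 1827 and 5262 CPM in females. Cyp3a means were 1483 and 3389 CPM in males and 7306 and 7009 CPM in females. CAST/EiJ was above C57BL/6J for Cyp2s (0.51, adjusted p = 0.00996) and not called for Cyp1a (0.26) or Cyp2g (-0.14), and Cyp1b was called between no strains (0.04 to 0.09). By subfamily counts, 7 of 7 Cyp2d members were called lower in NZO/HlLtJ than in CAST/EiJ, against 32.8% of all genes. All 3 of 3 Cyp2j members were called lower in CAST/EiJ than in C57BL/6J, against 35.3% of all genes. Cyp2d9, Cyp2d10 and Cyp2d11 share stretches with each other, so the Cyp2d members are not separate counts. The Cyp2e sum, which is Cyp2e1, was lower in NZO/HlLtJ than in C57BL/6J by 0.53 and than in CAST/EiJ by 0.49 (adjusted p = 1.48e-04 and 3.45e-04), and CAST/EiJ and C57BL/6J were not called apart (-0.05, SE 0.12).

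**Figure D4:**
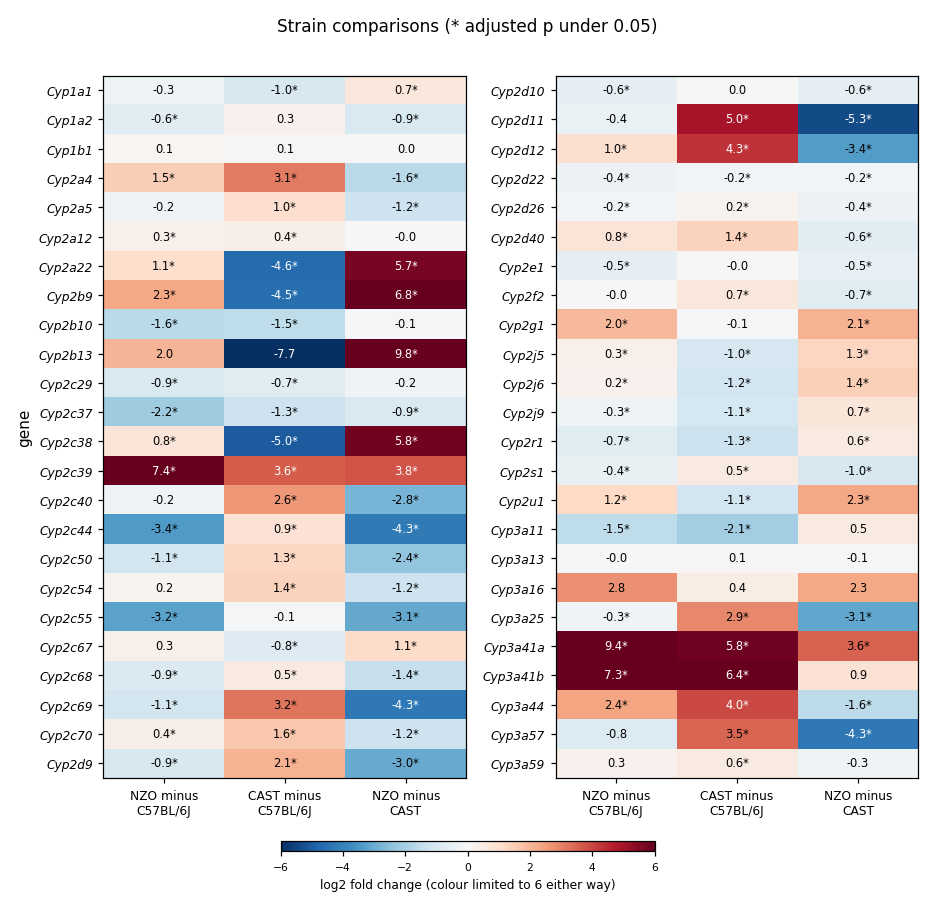
Log2 fold change between strains, averaged over sex and diet, of each of the 48 tested members (rows) for NZO/HlLtJ minus C57BL/6J, CAST/EiJ minus C57BL/6J and NZO/HlLtJ minus CAST/EiJ (columns); colour gives sign and size and an asterisk an adjusted p under 0.05. Cyp2c44 is lowest in NZO/HlLtJ and Cyp2c39 highest there, while Cyp3a25 and Cyp2d11 are highest in CAST/EiJ; fits with almost no counts in one strain, such as Cyp2b13 in CAST/EiJ, are no bound.

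Few members were called by diet, and a member that was not called may still differ. The 44% fat diet was set against the 10% fat diet in each strain, averaged over sex. In NZO/HlLtJ, 5 of 48 members were called, 3 higher and 2 lower on 44% fat, which is 10.4%, against 5.64% of all genes (3.5% higher and 2.14% lower), and the median difference of the members was 0.05, against 0 for all genes. In CAST/EiJ, 2 members were called, both higher, which is 4.17%, against 0.895% of all genes (0.498% higher and 0.396% lower). In C57BL/6J, 1 member was called, lower on 44% fat, which is 2.08%, against 0.991% of all genes (0.823% higher and 0.168% lower). In these quasi-likelihood tests, 11, 13 and 8 of 48 members had an unadjusted p under 0.05 in NZO/HlLtJ, CAST/EiJ and C57BL/6J. With a term for the identifier run, 6, 1 and 1 members were called in NZO/HlLtJ, CAST/EiJ and C57BL/6J. In NZO/HlLtJ males the hepatocyte marker sum was also lower on 44% fat, without overlap, and its part in the diet differences was not tested. Within single runs, with fewer libraries, the count was 0 in NZO/HlLtJ (first run), 0, 0 and 0 in CAST/EiJ and 1, 2 and 0 in C57BL/6J.

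In NZO/HlLtJ the clearest diet response was that of Cyp2c44. Males had 36.1, 39.6, 43.4 and 49.0 CPM on 44% fat, against 27.6, 22.9, 28.0 and 26.6 CPM on 10% fat. Females had 28.0, 27.8, 29.9 and 33.3 CPM on 44% fat, against 20.5, 19.9, 19.8 and 16.2 CPM on 10% fat. Within each sex every library on 44% fat was above every library on 10% fat, and the log2 difference over both sexes was 0.66 (SE 0.10, adjusted p = 7.34e-05). The rise was called in males (0.68, adjusted p = 0.00655) and in females (0.64, adjusted p = 0.0264), in the strain with the lowest Cyp2c44 level. In CAST/EiJ and C57BL/6J the differences were 0.17 and -0.05 (adjusted p = 0.537 and 0.895), but the dependence on strain did not pass (diet by strain, adjusted p = 0.0558).

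Cyp2c68 and Cyp2c70 fell on 44% fat in NZO/HlLtJ. Cyp2c68 had 88.9, 105, 112 and 83.8 CPM in males on 44% fat, against 169, 184, 166 and 124 CPM in males on 10% fat. In females it had 213, 137, 163 and 139 CPM on 44% fat, against 218, 214, 289 and 215 CPM on 10% fat. Neither sex overlapped between diets, and the log2 difference was -0.62 (SE 0.11, adjusted p = 6.26e-04). Cyp2c44, Cyp2c68 and Cyp2c70 passed in each of the 16 refits that left out a library. For Cyp2c70, males on 44% fat had 245, 439, 324 and 226 CPM, and males on 10% fat 770, 963, 709 and 420 CPM. Females on 44% fat had 598, 431, 485 and 444 CPM of Cyp2c70, and females on 10% fat 655, 529, 682 and 639 CPM. Both sexes overlapped by single libraries, and the difference over both sexes was -0.78 (SE 0.18, adjusted p = 0.00476), with -1.21 in males (adjusted p = 0.00519) and -0.36 in females (adjusted p = 0.657). The difference between the sexes was not called (sex by diet, adjusted p = 0.597).

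Cyp2b10 and Cyp2a22 rose on 44% fat in NZO/HlLtJ, with more spread. Cyp2b10 had 2.93, 0.201, 2.84 and 1.96 CPM in males on 44% fat, against 0.379, 0.0259, 0.0831 and 0.570 CPM on 10% fat. In females it had 1.62, 3.94, 1.77 and 2.51 CPM on 44% fat, against 1.07, 1.14, 1.55 and 0.825 CPM on 10% fat. Apart from 1 male on 44% fat, each library on 44% fat was above those on 10% fat of its sex, and the log2 difference was 1.98 (SE 0.58, adjusted p = 0.0365). Cyp2a22 had 17.1, 6.55, 17.2 and 13.6 CPM in males on 44% fat, against 1.26, 0.570, 2.58 and 5.97 CPM on 10% fat, without overlap. The female ranges of Cyp2a22 overlapped, with 67.2 to 149 CPM on 44% fat and 26.7 to 84.8 CPM on 10% fat, and the difference over both sexes was 1.48 (SE 0.45, adjusted p = 0.0444). Leaving out single libraries raised the adjusted p above 0.05 in 11 of 16 refits for Cyp2b10 (up to 0.0919) and in 12 of 16 for Cyp2a22 (up to 0.109). The Cyp2b sum rose by 1.49 (adjusted p = 0.0333), which was lost in 10 of 16 such refits, and Cyp2b9 missed the threshold (1.45, SE 0.45, adjusted p = 0.0513). Cyp2b10 was not called with limma on the deposited log2 values (0.73, adjusted p = 0.139), nor Cyp2a22 with DESeq2 (adjusted p = 0.0507) or without an expression filter (0.0565).

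In CAST/EiJ the 44% fat diet raised Cyp2j5. Males had 338, 347, 365 and 378 CPM on 44% fat, against 252, 266 and 284 CPM on 10% fat, without overlap. Females had 324, 249, 315 and 325 CPM on 44% fat, against 198, 279, 225 and 155 CPM on 10% fat, where the lowest library on 44% fat overlapped. The log2 difference was 0.46 (SE 0.09, adjusted p = 0.00909), and it remained called in all 15 refits that left out a library (adjusted p up to 0.049), but not in a fit of CAST/EiJ alone (adjusted p = 0.0580). The Cyp2j sum rose by 0.42 (SE 0.09, adjusted p = 0.0122), which was lost without male replicate 1 on 10% fat (adjusted p = 0.0534). Apart from the Cyp2b sum in NZO/HlLtJ and this one, no subfamily sum was called by diet in any strain. Cyp2c67 rose by 0.80 (SE 0.21, adjusted p = 0.0481), with 125, 171 and 350 CPM on 44% fat (lowest, median, highest of 8) and 62.8, 110 and 182 CPM on 10% fat (of 7). This call was lost in 8 of 15 refits without a library. In C57BL/6J, Cyp2c68 fell by 0.45 (SE 0.11, adjusted p = 0.0383), with 128, 219 and 550 CPM on 44% fat and 169, 361 and 561 CPM on 10% fat, and was lost in 11 of 16 refits. No member was called in diet by strain, in which 0.048% of all genes were called, and where 15 had an unadjusted p under 0.05 and DESeq2 called 2. None was called in sex by diet in any strain, with 6, 7 and 4 members at an unadjusted p under 0.05 in NZO/HlLtJ, CAST/EiJ and C57BL/6J, and 0.018%, 0% and 0.0841% of all genes called.

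**Figure D5:**
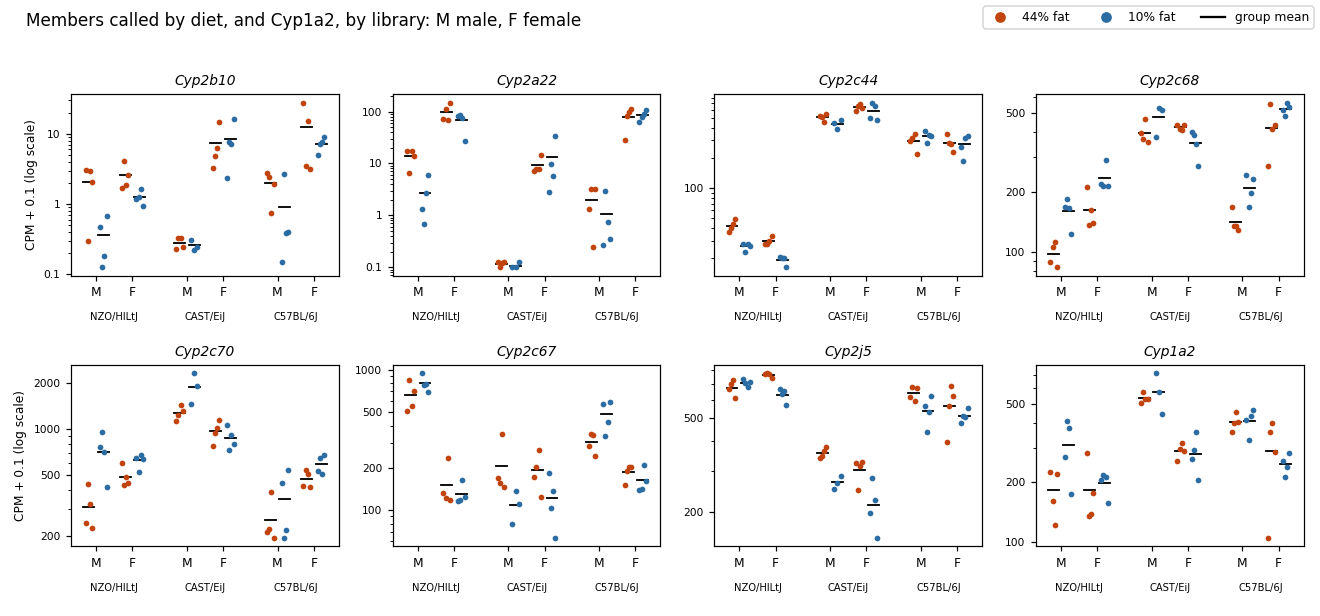
CPM + 0.1 (log axis) of the 7 members called by diet in at least 1 strain, and of Cyp1a2, in every library; 44% fat (red) stands left of 10% fat (blue), M is male, F female and black bars are group means. For Cyp2c44 in NZO/HlLtJ each library on 44% fat lies above those on 10% fat of its sex, and for Cyp2j5 in CAST/EiJ males the diets do not overlap.

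The genes that regulate P450s, supply them with electrons or heme or share their regulators were described as lists. The lists overlap, so their counts are not separate. Por was both a redox partner and a target of Nr1i3 and Nr1i2, and Alas1 both a heme gene and such a target. Ahrr was in the receptor list and among the other aryl hydrocarbon receptor targets. Their counts of calls by sex are to be read against 17.2%, 30.3% and 16.8% of all genes in NZO/HlLtJ, CAST/EiJ and C57BL/6J. Among 11 genes of growth hormone signalling and the sex programme, 6, 6 and 7 were called in that order of strains (54.5%, 54.5% and 63.6%). Cux2, a repressor of male-biased genes, had at most 0.847 CPM in any male library and at least 6.16 CPM in any female one, with differences of -6.16, -7.84 and -6.85 in that order of strains (adjusted p of at most 1.74e-13). Trim24, a nuclear receptor cofactor, was lower in males by 1.39, 2.34 and 2.22 (adjusted p of at most 1.22e-09). Among 14 xenobiotic receptors and their partners, 1, 3 and 1 were called (7.14%, 21.4% and 7.14%, each below the share of all genes), and Nr1i3 was called in each strain, lower in males by 0.82, 1.33 and 0.68 (adjusted p = 0.0122, 6.94e-05 and 0.0394). Nr1i2 was called in CAST/EiJ alone (-0.47, adjusted p = 0.00575), and the aryl hydrocarbon receptor gene Ahr in no strain (adjusted p of 0.144 to 0.908).

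Of 7 electron donors and other redox partners of P450s, 1, 5 and 4 were called by sex in the same order of strains (14.3%, 71.4% and 57.1%). Por had 169, 353 and 547 CPM in CAST/EiJ males and 440, 803 and 1140 CPM in females, a log2 difference of -1.45 (SE 0.22, adjusted p = 2.14e-06), and was also lower in C57BL/6J males (-0.64, adjusted p = 0.0252) but not called in NZO/HlLtJ (-0.11, adjusted p = 0.777). Of 12 genes of heme synthesis and breakdown, 1, 4 and 2 were called (8.33%, 33.3% and 16.7%), near or below the shares of all genes. Of 22 other targets of Nr1i3 and Nr1i2, 9, 14 and 10 were called, in both directions (40.9%, 63.6% and 45.5%). Of 7 tested other targets of the aryl hydrocarbon receptor, 3, 4 and 3 were called (42.9%, 57.1% and 42.9%). Of 21 liver P450s of other families, 10, 15 and 13 were called (47.6%, 71.4% and 61.9%), among them Cyp17a1, a steroid hydroxylase and lyase, lower in males by 4.50, 5.36 and 3.22 (adjusted p of at most 7.49e-11). Genes that mark the pericentral zone, where many P450s are made, were called in 2, 3 and 1 of 10 cases (20%, 30% and 10%), near or below the shares of all genes, and periportal genes in 4, 7 and 5 of 11 (36.4%, 63.6% and 45.5%). The part of these lists in the members' differences was not tested.

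By diet, 5.64%, 0.895% and 0.991% of all genes were called in NZO/HlLtJ, CAST/EiJ and C57BL/6J. In NZO/HlLtJ, 1 of the 14 receptors and partners (7.14%), 1 of the 7 redox partners (14.3%), 0 of the 12 heme genes, 0 of the 7 other targets of the aryl hydrocarbon receptor, 4 of the 22 other targets of Nr1i3 and Nr1i2 (18.2%) and 1 of the 11 growth hormone genes (9.09%) were called. So were 3 of the 21 other P450s (14.3%) and 2 of the 10 pericentral genes (20%), all higher on 44% fat, and 3 of the 11 periportal genes (27.3%), all lower. The called redox partner was Pgrmc1, a heme-binding partner of P450s, at 0.24 (adjusted p = 0.00661), and the called growth hormone gene was Socs2, a feedback inhibitor of growth hormone signalling and a target of it, at -1.61 (adjusted p = 0.0103). Ephx1, the microsomal epoxide hydrolase, rose by 0.90 (adjusted p = 0.00119). In CAST/EiJ, Por rose by 0.83 (SE 0.21, adjusted p = 0.0484) and was the single redox partner called. Of the other lists in CAST/EiJ, 2 of 22 targets of Nr1i3 and Nr1i2 (9.09%) were called, 1 higher, which was Por again, and 1 lower. Also called were 2 of 21 other P450s (9.52%), 1 of 10 pericentral genes (10%, higher) and 2 of 11 periportal genes (18.2%, both lower). None of the receptors, heme, growth hormone or other aryl hydrocarbon receptor target genes was called. In C57BL/6J, 2 of 22 targets of Nr1i3 and Nr1i2 (9.09%, both higher), 1 of 21 other P450s (4.76%, lower) and 1 of 10 pericentral genes (10%, higher) were called, and no gene of the remaining lists.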

How the data were processed

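The authors deposited a table of estimated (expected) read counts per gene and a table of variance-stabilized expression values on a log2 scale for the 47 libraries, per the file headers; DESeq2 and genome build GRCm38 are named in the submitters' processing notes. For the aligner, counter, annotation and strand setting: not given in the sources used here. Each gene in the count table was above 0 in at least 24 libraries, so genes silent in most libraries are missing. The deposited expected counts were rounded (20.3% were not whole, tolerance 1e-06).

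Counts were filtered with filterByExpr, scaled by TMM and fitted with edgeR 4.0.16 (robust quasi-likelihood, R 4.3.3) as 12 group means over 47 libraries (35 residual degrees of freedom). P-values were adjusted by Benjamini-Hochberg over 16650 genes and calls made under 0.05. Subfamily sums replaced their members in a second fit of 16616 rows. CPM uses the same TMM library sizes. Counts of 0 were bounded at 3 counts per library, for counting error only. No pair of libraries was identical. Identity and shared stretches of 100 bases used GENCODE vM21; promoters came from RefSeq. The tests were tried on simulated data with known changes. There, the test of diet in NZO/HlLtJ called 79.8% of 2-fold and 55% of 1.5-fold changes.

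Alternatives were limma 3.58.1 on the deposited log2 values, DESeq2 1.42.0, RLE scaling, no or a stricter filter (1 CPM in 4 libraries), each strain alone, the run of consecutive sample identifiers (3 runs, of 16, 16 and 15 libraries) as a term or alone, and each library left out. Fits without the 5 libraries high in Cpa1, and without 2 C57BL/6J libraries, were chosen after seeing the data. The members and all gene lists were chosen with earlier results of these data known. Described with values were, in each comparison, up to 6 called members with the smallest p, in each sex comparison up to 4 in each direction with the largest change, a set of well-known members, every subfamily sum and up to 4 called genes a list; other members in the text were chosen after their values were seen.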

Additional observations from a re-analysis of the deposited data

Results flagged for a closer look

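Within groups of 4 libraries, 27 of 396 combinations of a value and a group had a library far from the other 3 by Dixon's criterion, where chance gives about 1 in 20, or 20. Combinations with a highest level under 1 CPM were among the 396 but could not be flagged, so the chance figure is too high. Some combinations repeat, since the sum of a subfamily with 1 member is that member. C57BL/6J male replicate 2 on 10% fat was far above its group for Cyp2a4 (30.3 CPM, others at most 0.230), Cyp2b9 (3.59 CPM, others at most 0.126), Cyp3a11 (4610 CPM, others at most 1484) and the Cyp3a sum (5378 CPM, others at most 1884), and below it for Cyp2d9 (529 CPM, others at least 1202). C57BL/6J male replicate 3 on 44% fat was low for Cyp2a5 (68.3 CPM, others at least 181.5), Cyp3a11 (907 CPM, others at least 1199), the Cyp2b sum (0.647 CPM, others at least 2.86) and the Cyp3a sum (1272 CPM, others at least 1624). C57BL/6J female replicate 3 on 44% fat was high for Cyp3a13 (183.5 CPM, others at most 132).

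In NZO/HlLtJ females on 10% fat, replicate 3 was high for the Cyp2c sum (4996 CPM), the Cyp2d sum (1619 CPM), Cyp2c67 (163.8 CPM) and Cyp2f2 (709 CPM), and replicate 4 was low for Cyp1a2 (157 CPM) and Cyp2b13 (72.6 CPM). In NZO/HlLtJ females on 44% fat, replicate 1 was high for the Cyp2c sum (4664 CPM), the Cyp2d sum (1500 CPM) and Cyp2c69 (806.6 CPM), while replicate 3 was high for Cyp2c67 (234 CPM) and low for Cyp3a16 (109.5 CPM). In NZO/HlLtJ males, replicate 4 on 10% fat was low for the Cyp2c sum (2343 CPM) and high for Cyp2a4 (14.9 CPM), and replicate 3 on 44% fat was low for Cyp2d9 (243.8 CPM). In CAST/EiJ on 44% fat, female replicate 1 was low for the Cyp2a sum (3585 CPM), female replicate 2 for the Cyp2j sum (268 CPM), and male replicate 3 was high for Cyp2c67 (350 CPM).

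The sex difference depended on strain for 29 members, of which those chosen by name are given here with the sums, 22 values in all (edgeR quasi-likelihood test of sex by strain, Benjamini-Hochberg adjusted). Among sums the adjusted p was 6.72e-12 for Cyp2a, 0.00131 for Cyp2b, 0.0166 for Cyp2f, 8.28e-04 for Cyp2g, 2.42e-07 for Cyp2u and 7.66e-04 for Cyp3a. Among Cyp2a and Cyp2b members it was 8.83e-08 for Cyp2a5, 1.47e-05 for Cyp2b9 and 0.00549 for Cyp2b10. Among Cyp2c members it was 2.07e-05 for Cyp2c29, 2.13e-09 for Cyp2c40, 3.90e-07 for Cyp2c67, 2.62e-08 for Cyp2c69 and 6.45e-05 for Cyp2c70. It was 3.14e-06 for Cyp2d9, 0.0232 for Cyp2f2, 0.0471 for Cyp2r1 and 2.23e-07 for Cyp2u1. The Cyp2r1 call was lost with RLE scaling (adjusted p = 0.0533), without an expression filter (0.05265) and with the run as a term (0.0515). It was also lost without the 5 libraries high in Cpa1 (0.0743). Leaving out a library raised the adjusted p to at most 0.115 for Cyp2r1 and 0.056 for Cyp2f2. In Cyp3a it was 2.39e-05 for Cyp3a11, 7.14e-06 for Cyp3a13, 9.74e-05 for Cyp3a41a and 0.00399 for Cyp3a41b.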

How the results depend on the processing

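Of 143 results for named members and sums, 142 kept their call with RLE scaling and 141 with the identifier run as a term. The count was 139 without an expression filter. No result that had a direction changed it in the alternative runs examined. The results for sex by strain have no direction. For left-out libraries, only the refit with the highest adjusted p was examined. Without the 5 libraries high in Cpa1, 136 kept their call and 7 lost it, and when a single library was left out 129 kept it and 14 lost it. Of the results that could be fitted within a run, 30 kept and 43 lost their call in run 1, 27 and 11 in run 2, and 24 and 14 in run 3. DESeq2 and limma were run on single members and not on sums. DESeq2 kept 72 calls and lost 1, and limma kept 70 and lost 3. Members called by diet numbered 5 in NZO/HlLtJ, against 0 in the first run alone, 8 without the 5 libraries high in Cpa1 and 8 without the 2 C57BL/6J libraries set aside. In CAST/EiJ the 2 members became 1 with no filter, 1 with the run as a term and 0, 0 and 0 within runs 1, 2 and 3. In C57BL/6J the 1 member became 0 fitted alone, 2 and 0 within runs 2 and 3, 2 with limma and 3 with DESeq2. Diet by strain, at 0, gave 1 with the stricter filter, 1 without the 5 libraries, 1 without the 2, 1 with limma and 2 with DESeq2. By sex, CAST/EiJ gave 15 and 17 in runs 1 and 3 against 33, and C57BL/6J 16 and 18 in runs 1 and 2 against 30. Within run 1, sex by strain gave 4 against 29, NZO/HlLtJ against C57BL/6J 19 against 35, and sex by diet in C57BL/6J 1 against 0. Sex by diet in CAST/EiJ gave 1 fitted alone. Fits within a run hold fewer libraries; otherwise the cause was not tested. Leaving out each library gave 3 to 6 members by diet in NZO/HlLtJ, 1 to 2 in CAST/EiJ, 0 to 1 in C57BL/6J and 0 to 1 for diet by strain. By sex it gave 24 to 28 in NZO/HlLtJ, 32 to 33 in CAST/EiJ, 29 to 31 in C57BL/6J and 27 to 30 for sex by strain. Between strains it gave 33 to 36 (NZO/HlLtJ against C57BL/6J), 38 to 39 (CAST/EiJ against C57BL/6J) and 37 to 40 (NZO/HlLtJ against CAST/EiJ), and for sex by diet 0. With limma on the deposited log2 values, sex by strain was lost for Cyp3a41a (adjusted p = 0.190) and Cyp3a41b (0.801), and diet in NZO/HlLtJ for Cyp2b10 (0.139). No paired analysis was possible because the labels give no replicate numbers. Depth limits the male levels of Cyp2b13 and Cyp3a16, which rest on 0 to 41 and on 1 to 14 counts per strain.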
